A study of Mus musculus with 10 samples.

Results

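S100 proteins and annexins are calcium-binding protein families that meet at the inner face of cell membranes. The genes described here were all probe sets whose gene symbol in the platform annotation is an S100 or an Anxa symbol, apart from S100a8 and S100a9, and they numbered 28 of 24704 named genes. They comprise 15 S100 genes, 12 annexin genes and S100pbp, which the symbol rule takes in although it encodes a binding protein of an S100 protein and not a family member. S100a11 was not analysed here. Signals came from 10 Affymetrix arrays, 5 for each diet, hybridised with RNA from a preparation of liver sinusoidal endothelium (its cells are abbreviated LSEC), the porous lining of the hepatic sinusoids. The donors were female C57BL/6N mice with no engineered allele named in the labels, 10 weeks old at the start, which ate for 10 weeks either the CDAA diet, with 31% of its calories from fat and 1% cholesterol, or a control diet labelled Std. Every array holds a pool of 3 livers from which cells with CD146 on their surface were drawn out with magnetic beads, so one array is one pool, CDAA 1 to CDAA 5 or Std 1 to Std 5. The series' design text speaks of a Gata4 knockout, but no sample carries it, and 1 label gives the feeding time in days where the others give weeks.

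S100 proteins are small EF-hand proteins that mostly pair into dimers and, once loaded with calcium, grip target proteins. Annexins carry a core of repeats that binds acidic phospholipids when calcium rises, and they serve in vesicle traffic, plugging of membrane wounds, handling of phosphatidylserine and, on the endothelial surface, plasmin formation. Several members work as pairs, of which Anxa2 with S100a10 is the best known. In liver, several annexins are typical of bile duct epithelium, S100a4 is used as a marker of fibroblasts and of some macrophages, and Anxa1 and several S100 genes are abundant in neutrophils and other myeloid cells.

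The isolate gave signals for marker genes of other cell types, which bears on every value below. The array signal of a gene in such an isolate cannot tell fewer cells of a type from less RNA per cell. Lists of marker genes differed between diets in both directions. LSEC markers (10 of 12 fell) had list means of 10.23 to 11.27 with CDAA and 11.70 to 11.89 with Std, and pan-endothelial markers (9 of 12 fell) 9.81 to 10.88 and 11.10 to 11.27. Bile duct markers (9 of 9 rose) lay at 7.50 to 8.36 with CDAA and 4.48 to 5.59 with Std, recruited macrophage markers (9 of 12 rose) at 8.28 to 9.73 and 5.64 to 6.95, and stellate cell and fibroblast markers (7 of 14 rose) at 6.54 to 7.91 and 5.71 to 6.15. Kupffer cell markers (5 of 10 fell) lay at 7.96 to 8.85 with CDAA and 8.53 to 9.63 with Std, with overlap. The 3 lists that rose were highest in CDAA 1 and CDAA 3, and both endothelial lists were lowest there. Among the CDAA arrays, CDAA 1 and CDAA 3 were also highest for the neutrophil list (5.35 and 5.13) and the hepatocyte list (7.79 and 8.38). They were so by little for the Kupffer cell list and the T and NK cell list. For the B and plasma cell list and the mesothelial and smooth muscle list they were not. Std 3 stood apart by its neutrophil markers, with a list mean of 8.72 against 3.57 to 3.83 in the other Std arrays and 4.39 to 5.35 with CDAA. Its recruited macrophage list mean, 6.95, was also the highest of the controls, which otherwise lay at 5.64 to 5.88. With all arrays, Std 3 included, none of the 10 neutrophil markers passed the test between diets. No test of them without Std 3 is given here. Every CDAA array had a higher neutrophil list mean than every control other than Std 3. The part of any of these cells in the results below was not tested, and calls that change without CDAA 1 and CDAA 3 or without Std 3 are given without them as well.

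The comparison asked which of these genes the diet moved. Values are log2 signals, a change is CDAA minus Std, and "rose" is used where the limma Benjamini-Hochberg adjusted p over all genes was below 0.05. Of the 28 genes, 8 rose, against 7.49% of all genes, and none fell by limma, against 9.13% of all genes. At an unadjusted p below 0.05 by limma, 10 were higher and 1 was lower. Among annexins 7 of 12 rose, and among S100 genes 1 of 15, where 2 of the annexins and 8 of the S100 genes lay below the array median of 3.89 in both diets. Without Std 3 the counts were 8 and 2, and the difference between the families was not tested. The median change was 0.70 over the annexins, 0.016 over the S100 genes and -0.021 over all genes. For 5 of the 28 the rise was at least 1 on the log2 scale, which held for 2.53% of all genes. In the same 8 genes every CDAA array lay above every Std array, as in 6.16% of all genes. The count of risen members was again 8 without CDAA 1 and CDAA 3, and 10 without Std 3 or without all of these arrays. In these settings, in that order, 5.28%, 7.06% and 5.67% of all genes rose. Of the 28 genes, 10 had means below the array median in both diets, where a signal is not known to lie above background.

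**Figure D1:**
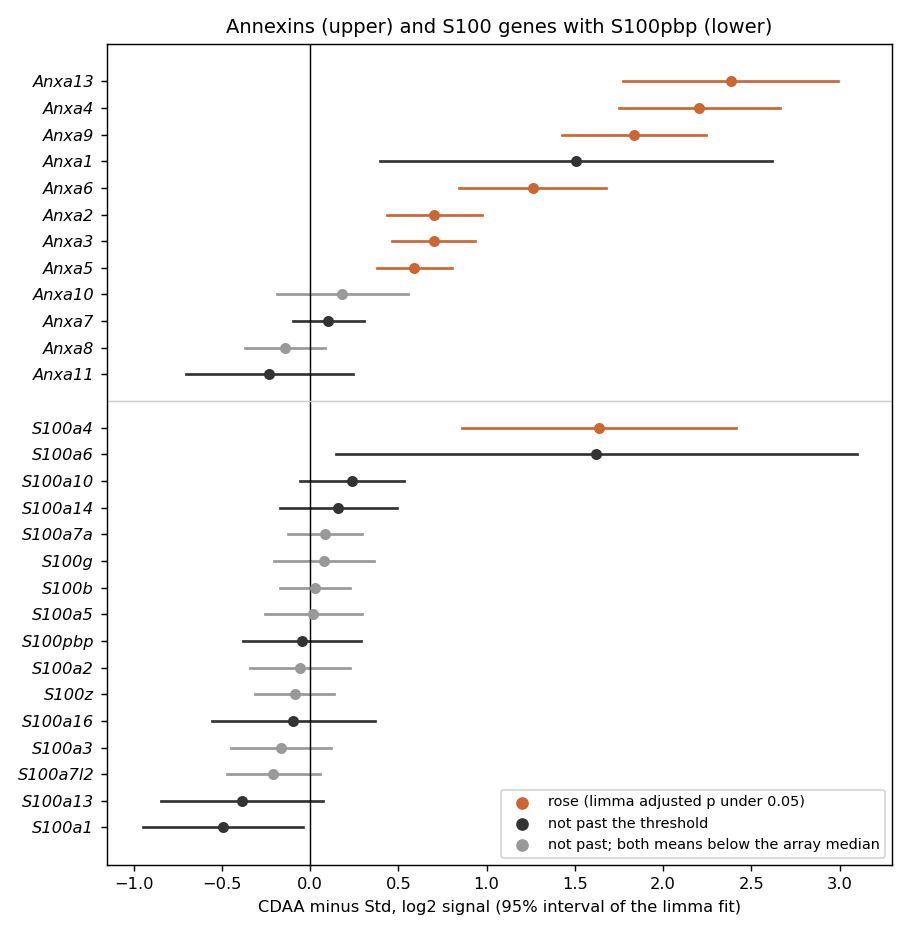
Change of each of the 28 genes (CDAA minus Std, log2 signal) with the 95% interval of the limma fit, 5 arrays per diet; annexins are above the grey line and S100 genes with S100pbp below it. Coloured points are the 8 genes past the threshold, from 0.59 for Anxa5 to 2.38 for Anxa13, and 7 of them are annexins.

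With all 10 arrays Anxa13 had the largest change of the 28 genes and Anxa4 the next. Anxa13 (probe set 69787_at), an annexin of intestinal and renal epithelium that serves apical transport, had signals of 7.53, 6.86, 7.79, 6.69 and 6.75 in CDAA 1 to CDAA 5 and of 5.28, 4.22, 5.38, 4.30 and 4.52 in Std 1 to Std 5. The groups did not overlap, and Std 1 and Std 3 were the highest controls. The change was 2.38 ± 0.28 (SE, limma adjusted p = 0.000214), a 5.22-fold difference in signal between means of 7.12 ± 0.50 and 4.74 ± 0.55 (SD, n = 5 each). Bile duct markers were likewise highest in Std 1 (5.59) and Std 3 (5.37) among the controls.

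Anxa4 (11746_at), a membrane-organising annexin abundant in ductal and glandular epithelium, was at 10.27, 9.38, 10.09, 9.17 and 9.35 in CDAA 1 to CDAA 5 and at 7.70, 7.26, 7.67, 7.42 and 7.19 in Std 1 to Std 5. The lowest CDAA array thus lay well above the highest Std array. It rose by 2.21 ± 0.21 (SE, limma adjusted p = 6.38e-05), from 7.45 ± 0.23 to 9.65 ± 0.49 (SD, n = 5 each), or 4.61-fold, and this was the smallest adjusted p among the 28 genes.

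Anxa9 (71790_at), an annexin whose core repeats have lost typical calcium-binding residues, was at 5.94, 5.51, 6.10, 5.46 and 4.94 in CDAA 1 to CDAA 5. In Std 1 to Std 5 it read 3.77, 3.65, 3.95, 3.78 and 3.63, of which all but Std 3 lie below the array median, so the 3.57-fold difference may understate the change. The change was 1.83 ± 0.19 (SE, limma adjusted p = 9.28e-05). Anxa6 (11749_at), which has a tandem core and acts in endosomal cholesterol transport and membrane repair, was at 8.90, 8.23, 8.84, 7.93 and 8.13 in CDAA 1 to CDAA 5 and at 7.33, 7.19, 7.36, 6.90 and 6.94 in Std 1 to Std 5. It rose by 1.26 ± 0.19 (SE, limma adjusted p = 0.00103), 2.40-fold, again with no overlap.

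**Figure D2:**
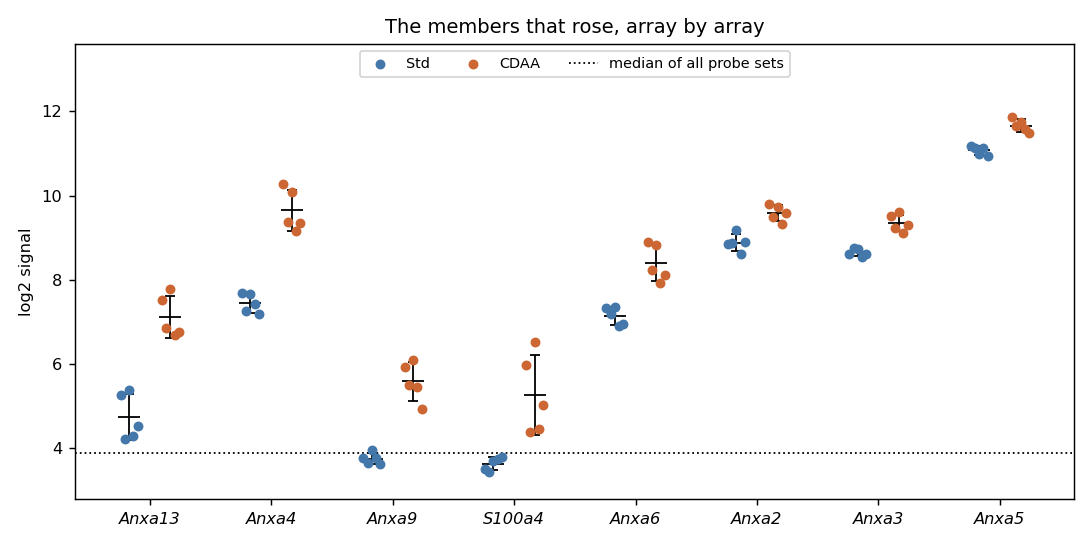
Log2 signal of the 8 genes that rose, one point per array, with the mean and SD of each diet (n = 5) as black bars; the dotted line is the array median of 3.89. Points run from replicate 1 on the left to replicate 5 on the right, and in all 8 genes the first and the third CDAA point are the highest of their group.

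The other annexins that rose lay well above the array median with both diets and had changes below 1. Anxa2 (12306_at), the partner of S100a10 that assembles plasminogen and its activator on the endothelial surface, was at 9.80, 9.49, 9.73, 9.32 and 9.59 in CDAA 1 to CDAA 5 and at 8.85, 8.88, 9.18, 8.62 and 8.89 in Std 1 to Std 5. It rose by 0.70 ± 0.12 (SE, limma adjusted p = 0.00264), 1.63-fold. Anxa3 (11745_at), an annexin of neutrophils and of migrating endothelium, rose by 0.70 ± 0.11 (SE, limma adjusted p = 0.00113), with 9.12 to 9.60 (median 9.30) in CDAA and 8.54 to 8.76 (median 8.61) in Std. Std 3 read 8.73 for Anxa3, within the range of the other controls, and the part of neutrophils in this signal was not tested. Anxa5 (11747_at), the phosphatidylserine binder used as a probe of dying cells, was at 11.86, 11.65, 11.75, 11.57 and 11.48 in CDAA 1 to CDAA 5 and at 10.95 to 11.18 (median 11.12) in Std, a rise of 0.59 ± 0.098 (SE, limma adjusted p = 0.00182) or 1.51-fold.

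In every one of the 8 risen genes CDAA 1 and CDAA 3 were the highest CDAA arrays. Without both arrays all 8 passed again, with changes of 2.03 for Anxa13, 1.85 for Anxa4, 1.55 for Anxa9, 0.95 for Anxa6, 0.58 for Anxa2, 0.57 for Anxa3, 0.50 for Anxa5 and 0.98 for S100a4. All 8 changes were thus called from CDAA 2, CDAA 4 and CDAA 5 alone, at smaller sizes, with a ratio of 1.67 between both log2 changes of S100a4. Bile duct and recruited macrophage markers also stayed above every control in those 3 arrays, at 7.50 to 7.88 and 8.28 to 8.69. So did stellate cell and fibroblast markers, at 6.54 to 7.25.

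The promoter of Anxa2 is shown because it alone, among risen genes with an entry, held 2 of the 3 motifs searched for. Those of Anxa10 and S100a7l2, which did not pass, held the same 2. The Anxa2 promoter is given as the 250 bases before the start that RefSeq gives (chr9:69453433-69453682, GRCm38.p6, plus strand), 5′ to 3′. Capitals mark TGANTCA, a loose form of the AP-1 motif with any base in the middle, and TATAAA, the TATA box motif. Each was searched on both strands, and in Anxa2 they begin 95 and 17 bases before the start.
Anxa2: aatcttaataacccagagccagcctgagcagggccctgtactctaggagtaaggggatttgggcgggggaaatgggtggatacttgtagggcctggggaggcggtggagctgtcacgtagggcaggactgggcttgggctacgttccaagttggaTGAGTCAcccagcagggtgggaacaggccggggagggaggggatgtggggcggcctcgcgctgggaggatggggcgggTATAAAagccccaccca
Among the 28 genes, 22 had 30 promoters in the RefSeq table; Anxa3, Anxa6, Anxa13, S100a2, S100a10 and S100a14 had no entry. TGANTCA was present in 4 of the 30, those of Anxa2, Anxa10, S100a7l2 and the second promoter of S100a16, against 6.75% of 32851 promoters of the same length. TATAAA was present in 6 of the 30, those of Anxa1, Anxa2, Anxa10, S100a4, S100a7l2 and the third promoter of S100a3, against 12.4%. CACGTG, the E-box that MYC binds, was present in 1 of the 30, against 6.02%. Of the 5 risen genes with an entry, only Anxa2 held TGANTCA, Anxa2 and S100a4 held TATAAA, and none held CACGTG. Genes with several promoters contribute overlapping or related windows, and a match of letters is not a bound site.

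Among S100 genes, only S100a4 rose with all arrays. S100a4 (20198_at), which binds non-muscle myosin IIA and is used as a marker of fibroblasts and of inflammatory macrophages, was at 5.99, 4.39, 6.53, 4.45 and 5.03 in CDAA 1 to CDAA 5. All Std arrays lay below the array median, at 3.50, 3.44, 3.71, 3.75 and 3.79. The groups did not overlap, though CDAA 2 and CDAA 4 lay only a little above the controls. The change was 1.64 ± 0.36 (SE, limma adjusted p = 0.00829), with an SD of 0.95 in CDAA and 0.16 in Std, and the 3.11-fold difference may understate it.

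S100a6 (20200_at), calcyclin, a partner of annexins that is abundant in fibroblasts and epithelia, lies next to S100a5 and S100a4 in the genome and had almost the same change, 1.62 ± 0.68, yet missed the threshold (limma adjusted p = 0.134). It was at 7.62, 6.60, 7.87, 6.55 and 7.27 in CDAA 1 to CDAA 5 and at 4.71, 4.52, 8.66, 4.64 and 5.27 in Std 1 to Std 5. Std 3 was thus above every CDAA array, and the other 4 controls were below all of them. S100a6 passed with the replicate number as a block. Without Std 3 the change was 2.40 ± 0.28 (SE) and passed (limma adjusted p = 0.000277). In the same array the neutrophil markers were high, and the recruited macrophage markers were the highest of the controls.

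Anxa1 (16952_at), an anti-inflammatory annexin of neutrophils and other myeloid cells that signals through formyl peptide receptors, showed the same pattern. Its signals were 10.00, 9.27, 10.01, 8.90 and 9.41 in CDAA 1 to CDAA 5 and 7.18, 7.59, 10.32, 7.35 and 7.60 in Std 1 to Std 5. At 1.51 ± 0.51 its change missed the threshold (SE, limma adjusted p = 0.0646). Without Std 3 it was 2.09 ± 0.22 and passed (limma adjusted p = 0.000167). It also passed with genes below the median left out, with array weights, with the replicate number as a block and without CDAA 1, CDAA 3 and Std 3. Std 3 exceeded the next control by 2.72 for Anxa1 and by 3.39 for S100a6, and by no more than 0.41 for any other of the 28 genes.

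S100a8 and S100a9, the calprotectin subunits that fill the cytosol of neutrophils and that the symbol rule leaves out, had the same shape more sharply: S100a8 was at 11.65 in Std 3, 5.39 to 6.04 in the other controls and 7.67 to 8.96 with CDAA. Without Std 3 the changes of S100a8 and S100a9 were 2.65 and 2.56 and passed, whereas with all arrays they were 1.46 and 1.49 (limma adjusted p = 0.383 and 0.313).

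**Figure D3:**
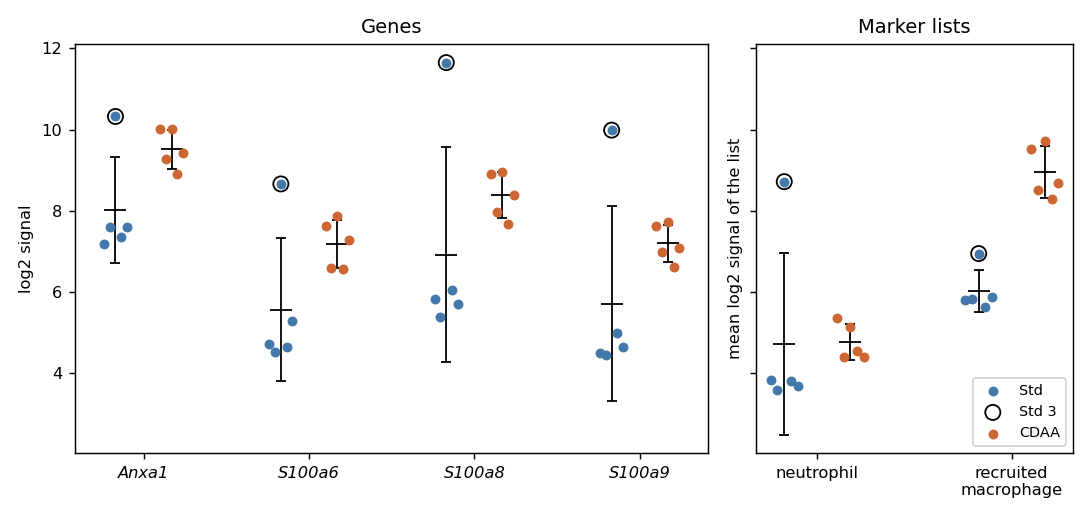
Log2 signal of Anxa1, S100a6, S100a8 and S100a9 (left) and mean log2 signal of the neutrophil and recruited macrophage marker lists (right), one point per array with the mean and SD of each diet (n = 5); circles mark Std 3. In all 4 genes Std 3 lies above every CDAA array, whereas the other 4 controls lie below them, and its neutrophil list mean of 8.72 is the highest of the 10 arrays.

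The promoters of S100a4 and S100a6 are printed side by side because these genes are near neighbours on one strand. Their changes were 1.64 and 1.62 with all arrays, where only S100a4 passed, and 1.66 and 2.40 without Std 3. Capitals mark TATAAA, the only motif of the 3 that either held, and the sequences were not otherwise compared. The windows are chr3:90603520-90603769 and chr3:90612644-90612893 of GRCm38.p6, both on the plus strand, from RefSeq.
S100a4: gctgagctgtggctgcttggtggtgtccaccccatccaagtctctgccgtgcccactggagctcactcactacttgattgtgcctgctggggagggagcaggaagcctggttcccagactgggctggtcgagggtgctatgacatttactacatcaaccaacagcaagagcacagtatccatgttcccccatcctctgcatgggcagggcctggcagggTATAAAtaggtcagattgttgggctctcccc
S100a6: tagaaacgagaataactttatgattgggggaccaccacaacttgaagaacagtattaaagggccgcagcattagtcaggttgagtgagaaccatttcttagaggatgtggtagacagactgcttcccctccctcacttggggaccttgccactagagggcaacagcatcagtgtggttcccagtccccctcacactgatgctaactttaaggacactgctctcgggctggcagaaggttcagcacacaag
In S100a4 the motif begins 31 bases before the start. S100a6 held none of the 3 motifs in these 250 bases.

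Nearly all S100a genes lie in one stretch of mouse chromosome 3, and their differences are given here in that order. RefSeq places 15 S100a genes there, of which 14 were measured, S100a8 and S100a9 included. With all arrays S100a4 was the only one past the threshold. Without Std 3, 4 of the 14 rose, against 7.06% of all genes. The rises were 1.66 for S100a4, 2.40 for S100a6, 2.65 for S100a8 and 2.56 for S100a9. S100a5, between S100a4 and S100a6, had means of 2.41 with CDAA and 2.39 with Std, both below the array median. S100a2 and S100a3, on the other side of S100a4, were also below it, with differences of -0.058 and -0.16, neither of which passed. Of 51 other protein-coding genes measured between the first and the last S100a gene, mostly late epidermal genes, 46 were below the array median with both diets. Among the 51, 2 rose and none fell, against 7.49% and 9.13% of all genes. The 2 were Sprr1a, an epithelial cornified envelope precursor, by 1.87, and Lce6a, a late cornified envelope gene, by 0.89; Lce6a stayed below the array median. Of the measured flanking genes, only Snapin, which encodes a vesicle fusion protein, passed, with a fall of 0.40 (limma adjusted p = 0.0418). The neighbour of Snapin, Chtop, at the edge of the cluster, differed by 0.10 and missed the threshold (limma adjusted p = 0.621). Ilf2, Tdpoz1, Tdpoz2 and Tdpoz4 also missed it.

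**Figure D4:**
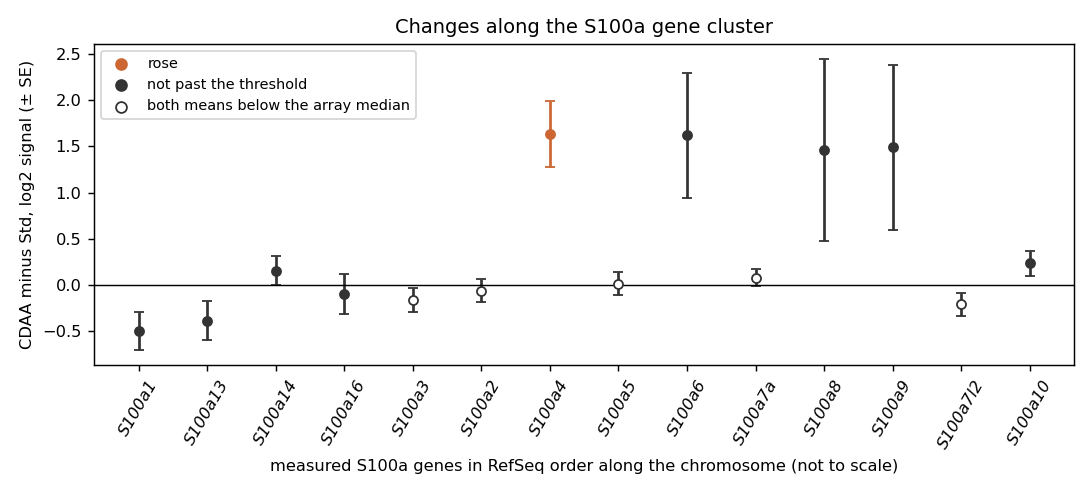
Change (CDAA minus Std, log2 signal, ± SE, 5 arrays per diet) of the 14 measured S100a genes in RefSeq order along the chromosome, S100a8 and S100a9 included; distances are not to scale. Open points have means below the array median with both diets, and S100a4, at 1.64, is the only point past the threshold with all arrays, while S100a6, S100a8 and S100a9 lie at 1.62, 1.46 and 1.49.

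S100a1 and S100a13 had negative differences that missed the threshold. S100a1 (20193_at), a regulator of calcium handling in muscle and endothelium, was at 9.22, 10.27, 9.09, 9.68 and 10.04 in CDAA 1 to CDAA 5 and at 10.03, 10.32, 9.93, 10.18 and 10.32 in Std 1 to Std 5. The low arrays were CDAA 1 and CDAA 3, and the others overlapped the controls. The difference was -0.49 ± 0.21 (SE, limma adjusted p = 0.138), and without CDAA 1 and CDAA 3 it was -0.16. Without CDAA 2, the highest CDAA array, it was -0.65 and passed (limma adjusted p = 0.0379), and it also passed with the replicate number as a block. S100a13 (20196_at), which helps to release FGF1 from cells by a route outside the secretory pathway, was at 8.30, 9.17, 8.02, 8.76 and 9.04 in CDAA 1 to CDAA 5 and at 8.78 to 9.37 in Std. Its difference was -0.38 ± 0.21 (SE, limma adjusted p = 0.267), and it was -0.23 without CDAA 3 and -0.053 without CDAA 1 and CDAA 3. For both genes CDAA 3 was the lowest array, then CDAA 1, and CDAA 2 was the highest of the CDAA arrays. The pan-endothelial list mean had its lowest values in the same arrays, 9.81 in CDAA 3 and 10.18 in CDAA 1, against 10.61 to 10.88 in the other CDAA arrays.

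These genes start back to back on opposite strands, and their RefSeq promoter windows share 104 bases. The window of S100a13 (chr3:90514185-90514434, GRCm38.p6, plus strand) is shown for that shared stretch, which is its last 104 bases; it held none of the 3 motifs, so no letter is in capitals.
S100a13: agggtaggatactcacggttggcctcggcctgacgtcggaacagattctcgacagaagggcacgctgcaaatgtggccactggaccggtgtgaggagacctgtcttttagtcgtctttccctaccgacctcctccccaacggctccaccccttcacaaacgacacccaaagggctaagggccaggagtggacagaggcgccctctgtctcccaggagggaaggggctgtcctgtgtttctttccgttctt

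S100a10 (20194_at), the light chain of the Anxa2 complex, missed the threshold. It was at 9.99, 10.31, 10.07, 10.26 and 10.51 in CDAA 1 to CDAA 5 and at 9.94, 10.19, 9.69, 9.86 and 10.27 in Std 1 to Std 5, and the groups overlapped. The difference was 0.24 ± 0.14 (SE, limma adjusted p = 0.288), with a 95% interval of -0.058 to 0.53, and was 0.37 without CDAA 1 and CDAA 3. CDAA 1 and CDAA 3, the highest CDAA arrays for Anxa2, were the lowest for S100a10. S100a16 (67860_at), an S100 gene of broad expression, ranged from 6.08 in CDAA 3 to 7.44 in CDAA 5 and from 6.76 to 7.19 in Std, with a difference of -0.096 (limma adjusted p = 0.830) that turned positive without CDAA 3 (0.11). S100a14 (66166_at), an epithelial S100 gene, was at 4.62 to 4.69 in CDAA and 3.97 to 4.97 in Std, and differed by 0.16 (limma adjusted p = 0.567), or by 0.28 without Std 3 and 0.026 without Std 5.

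Among annexins above the array median that missed the threshold, Anxa7 (11750_at), synexin, an annexin of membrane fusion, was at 8.34 to 8.57 in CDAA and 8.14 to 8.48 in Std. Its difference was 0.10, with a 95% interval of -0.100 to 0.30 (limma adjusted p = 0.539), and was 0.053 without Std 3. Anxa11 (11744_at), which binds S100a6 and the calcium sensor encoded by Pdcd6, was at 7.65 in CDAA 5, 8.38 to 8.60 in the other CDAA arrays and 8.14 to 9.08 in Std. It differed by -0.23, with an interval of -0.70 to 0.24 (limma adjusted p = 0.553), or by -0.060 without CDAA 5 and -0.10 without Std 3. S100pbp (74648_at) ranged from 5.99 to 6.90 in CDAA and from 6.24 to 6.66 in Std and differed by -0.047 (limma adjusted p = 0.888).

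**Figure D5:**
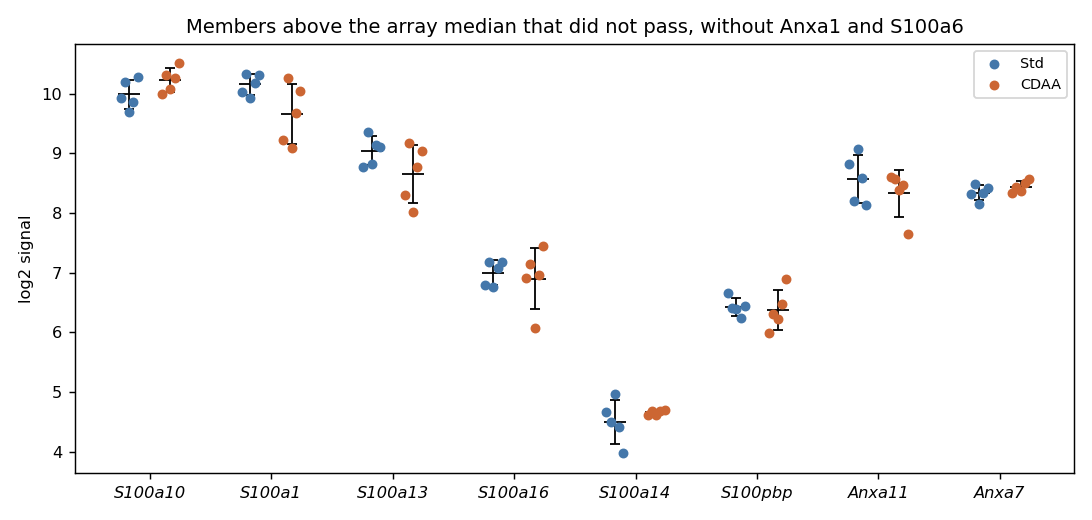
Log2 signal of 8 members above the array median that did not pass the threshold, Anxa1 and S100a6 aside, one point per array with the mean and SD of each diet (n = 5). The diets overlap in each gene, and for S100a1 and S100a13 the first and the third CDAA point, CDAA 1 and CDAA 3, are the lowest.

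The remaining 10 members had means below the array median with both diets, between 2.26 and 3.16, and none passed. They were Anxa8 and Anxa10, annexins of stratified and gastric epithelium, the skin-associated S100a2, S100a3, S100a7a and S100a7l2, S100a5, the glial S100b, S100g, which encodes the vitamin D-dependent intestinal calbindin, and S100z. Their differences lay between -0.21 for S100a7l2 and 0.18 for Anxa10. Such signals leave a change below background unseen.

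For pairs with a known link, the test asked whether the diet moved one gene more than the other, by exact permutation of the arrays over the per-array difference of the 2 log2 signals. Of the 5 pairs planned, the one with S100a11 could not be computed, and none of the other 4 passed after adjustment over the 4. The change of Anxa2 was above the difference of S100a10 by 0.47 ± 0.22 (SE, two-sided exact permutation p = 0.0794, adjusted p = 0.106). Without Std 3 this was 0.62 and passed (exact permutation, adjusted p = 0.0212). The difference of Anxa11 was below that of S100a6 by 1.85 (difference -1.85 ± 0.76 SE, exact permutation p = 0.0476, adjusted p = 0.106), and without Std 3 the difference of -2.50 passed (exact permutation, adjusted p = 0.0159). The differences of S100a6 and S100a1 lay apart by 2.12 ± 0.96 (SE, exact permutation p = 0.0635, adjusted p = 0.106), and by 2.95 without Std 3, which passed (exact permutation, adjusted p = 0.0159). Without CDAA 1 and CDAA 3 these pairs stood, in the same order, at 0.22, -1.58 and 1.405. None of these passed (exact permutation, adjusted p = 0.476, 0.429 and 0.429). Anxa2 and Anxa5, the latter with no such S100 partner, differed in change by 0.11 ± 0.14 (SE, exact permutation p = 0.437).

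Of 27 measured genes that encode binding partners, receptors, plasminogen system and membrane repair proteins and cytoskeletal linkers, 7 rose and 3 fell, against 7.49% and 9.13% of all genes, with a median change of 0.0094. Among the risen was Myof, myoferlin, a membrane fusion and repair protein, at 7.54 to 9.13 in CDAA and 5.82 to 6.42 in Std, a rise of 2.21 ± 0.27 (SE, limma adjusted p = 0.000295). Its relative Dysf, dysferlin, which works with annexins in sealing membrane wounds, fell by 0.88 ± 0.13 (SE, limma adjusted p = 0.00100), from 8.36 to 8.55 in Std to 7.16 to 7.91 in CDAA. Neither gene's arrays overlapped between diets. Ezr, ezrin, which ties the membrane of epithelial microvilli to actin, rose by 1.44 (limma adjusted p = 0.00079).

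Of the plasminogen system that meets Anxa2 and S100a10 at the cell surface, Plat, tissue plasminogen activator, rose by 0.82 ± 0.14 (SE, limma adjusted p = 0.00182), and Plau, urokinase, by 0.64 ± 0.13 (SE, limma adjusted p = 0.00648). Plaur, the urokinase receptor, missed the threshold at 1.07 ± 0.34 (SE, limma adjusted p = 0.0516), but passed with the lowest 25% of genes or those below the median left out (limma adjusted p = 0.0423 and 0.0347) and with array weights (limma adjusted p = 0.0278). It also passed with the replicate number as a block (limma adjusted p = 0.0182). Std 3 was at 8.12 for Plaur against 6.14 to 6.31 in the other controls and 7.26 to 8.15 with CDAA, and without it the change was 1.45 and passed (limma adjusted p = 0.000317). Plg, plasminogen, a hepatocyte product, missed the threshold at -0.53 (limma adjusted p = 0.164). It fell by 0.75 without CDAA 3 (limma adjusted p = 0.0120), the array with the highest hepatocyte list mean (8.38). Plg also passed without CDAA 1 and CDAA 3 (-0.81, limma adjusted p = 0.0184) and without these and Std 3 (-0.84, limma adjusted p = 0.0225). With array weights its change was -0.65 and passed (limma adjusted p = 0.0338). Fpr1 was not analysed here.

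Ahnak and Ahnak2, giant scaffold proteins of which the first binds the Anxa2 and S100a10 complex, rose by 0.41 and 0.53 (limma adjusted p = 0.0290 and 0.00828), and neither passed without CDAA 1 and CDAA 3, at 0.28 and 0.41. Pdcd6 rose by 0.33 (limma adjusted p = 0.0415), but the call was lost in several settings. It was lost without CDAA 1 and CDAA 3 together (0.27), with array weights (0.29) and with the replicate number as a block. Leaving out CDAA 1 (0.31), CDAA 3 (0.30), CDAA 5 (0.29) or any one of Std 1 to Std 4 (0.29 to 0.35) also lost it. Ahnak also missed the threshold without CDAA 1 (0.32), CDAA 3 (0.41), Std 1 (0.40), Std 3 (0.38) or Std 5 (0.40), and with the replicate number as a block. Without CDAA 1 and CDAA 3, 4 of the 27 genes rose, against 5.28% of all genes. Fgf1, the growth factor that S100a13 helps to export, fell by 0.74 at a limma adjusted p of 0.0271, a call lost without CDAA 1 (-0.73), Std 1 (-0.75), Std 2 (-0.75), Std 3 (-0.68) or Std 4 (-0.69), or without CDAA 1 and CDAA 3 (-0.46). The call of Fgf1 was also lost with the replicate number as a block. Vcl, vinculin of focal adhesions, fell by 0.52 at a limma adjusted p of 0.0169, a call lost without CDAA 1 and CDAA 3 (-0.38).

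None of the receptors Ager, Fpr2 and Tlr4 passed. Ager, the receptor RAGE for several extracellular S100 proteins, had means below the array median with both diets, 3.59 and 3.67. Fpr2, a receptor of Anxa1 on myeloid cells, was at 7.77 in Std 3, 3.71 to 4.96 in the other controls and 4.47 to 5.44 with CDAA, and differed by -0.039 (limma adjusted p = 0.978), or by 0.69 without Std 3 (limma adjusted p = 0.110). Tlr4, a receptor for the S100a8 and S100a9 complex, was lower by a difference of -0.24 that missed the threshold (limma adjusted p = 0.269).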

How the data were processed

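The authors deposited log2 signals of 25428 probe sets on 10 arrays, prepared with RMA (submitters' processing notes, which give no version per the labels), a method that forces every array onto one distribution. Array design, build and dates are not given in the sources used here; no batch could therefore be examined, nor could background correction be varied. Precision is limited by the number of arrays. Names came from the platform annotation of the probe sets (24705 with 1 symbol, 0 with several, 723 with none). For 1 gene with several probe sets the brightest was kept.

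CDAA was compared with Std in R 4.3.3 with limma 3.58.1 (functions lmFit, then eBayes; two-sided tests). Adjustment over the 24704 genes was by Benjamini-Hochberg, with a threshold of 0.05. The procedure was tested on simulated data. An array is a pool of mice, and p-values reflect how pools vary. Pair differences used exact permutation over 252 arrangements (smallest p 0.00794). All members were named by rule, and partner genes where they passed or were receptors. Plaur, Plg, Tlr4, Sprr1a, Lce6a, Snapin, Chtop, Ilf2 and the Tdpoz genes were added or picked as neighbours. Members, lists, pairs and tests were chosen with earlier results of these data known. Same-numbered arrays were compared by their deviations from the group mean. Alternatives were a replicate block, renormalization, centring, filters, variance options, array weights, probe set means and leaving out arrays; leaving out CDAA 1, CDAA 3 and Std 3 together was chosen after seeing the data. Promoters are from RefSeq, GRCm38.p6, and gene order from its gene table of the same build, used for order alone.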

Additional observations from a re-analysis of the deposited data

Results flagged for a closer look

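In each gene and diet, the highest or lowest array was singled out when it lay farther from its neighbour than 0.71 of the whole range. Of 56 such groups of 5 arrays, 6 were singled out; chance does this for about 1 group in 20.

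Std 3 was singled out for Anxa1 at 10.32, S100a6 at 8.66 and S100a3 at 3.39, where the next highest controls were at 7.60, 5.27 and 2.98. The neutrophil marker mean was the highest of the 10 arrays there and the recruited macrophage marker mean the highest of the controls; their part in these values was not tested; S100a3 is below the array median.

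CDAA 3 was high for Anxa10 at 3.11, with the next CDAA array at 2.32, below the array median. CDAA 5 was low for Anxa11 at 7.65, with the next at 8.38, and for S100a3 at 2.49, with the next at 2.89.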

How the results depend on the processing

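All 8 risen members kept their call and direction under each of the 20 other settings, 160 of 160 comparisons. The count of risen members ranged from 8 to 10 when 1 array was left out, where 5.68% to 8.05% of all genes rose. Of the 28 members, 17 passed under no setting. The count of fallen members, 0, became 1 (S100a1) with the replicate number as a block and was 0 to 1 when 1 array was left out. The risen partner genes went from 7 to 4 without CDAA 1 and CDAA 3, where 5.28% of all genes rose.

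Same-numbered arrays had correlations of deviations of 0.016 to 0.25. The most similar Std array had the same number for CDAA 2, CDAA 3 and CDAA 4, but not for CDAA 1 and CDAA 5. These values cannot decide whether the numbers are pairs, so the main test used no block and the block is given as an alternative. With the replicate block, 10 members and 6 partner genes rose, 1 and 2 fell, and 7.66% of all genes rose and 9.25% fell. Anxa1, S100a6, S100a1 and Plaur then passed, and Ahnak, Pdcd6 and Fgf1 no longer did (limma adjusted p = 0.0559, 0.0606 and 0.0520).

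The pair differences ranged, with 1 array left out, from 0.35 to 0.62 for Anxa2 and S100a10, from -2.50 to -1.58 for Anxa11 and S100a6 and from 1.80 to 2.95 for S100a6 and S100a1. Without CDAA 1 and CDAA 3 together they were 0.22, -1.58 and 1.405, in that order. Each of the 3 passed without Std 3 and in no other setting run. For Anxa2 and Anxa5 the range was 0.036 to 0.21, and no setting passed. With same-numbered arrays as a block, a test of 5 pairs cannot reach 0.05.

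Differences that turned sign never passed. Without CDAA 1 and CDAA 3 they were -0.0037 for Anxa10, 0.18 for S100a16, 0.12 for S100a2, -0.079 for S100a5 and 0.13 for S100pbp. Without Std 3 as well they were 0.12 for S100a16, 0.12 for S100a2, -0.015 for S100a5, 0.12 for S100pbp and 0.010 for S100z. With array weights they were 0.0048 for S100a16 and -0.0058 for S100a5. With 1 array left out the ranges were -0.23 to 0.11 for S100a16, -0.14 to 0.052 for S100a2, -0.044 to 0.080 for S100a5, -0.011 to 0.074 for S100b and -0.18 to 0.051 for S100pbp. Signals near background limit what could be seen for the 10 members below the array median.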
